A study of Homo sapiens with 6 samples.

Results

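The 9 genes HLA-B, HLA-C, HLA-E, HLA-F, B2M, TAP1, TAP2, PSMB8 and PSMB9, which act in MHC class I antigen presentation, were compared between siNONO and siControl cells. They were taken by symbol from the 62492 genes listed for each library, and all 9 were found. RNA-seq had been carried out in HCT116, a human colorectal carcinoma cell line, after transfection of siRNA at 20 nM with a lipid reagent. The siControl cells, wild type by the labels, received a commercial control duplex, and the siNONO cells received 1 duplex against NONO, an RNA-binding protein of nuclear paraspeckles. Each group had 3 libraries, 1 from each of the Sets numbered 1 to 3. With 1 duplex, the effect of losing NONO and any effect of the duplex itself cannot be told apart. Nothing in the labels says that the Sets were separate cultures, so p-values measure the spread between these libraries, which may be technical.

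MHC class I molecules show short peptides from inside the cell to CD8 T cells. The proteasome cuts proteins into peptides, the TAP1 and TAP2 transporter carries them into the endoplasmic reticulum, and there they are loaded onto a class I heavy chain bound to beta-2-microglobulin. In most cell types these genes are expressed at a basal level and are raised by interferons, which act in part through IRF factors and through the class I transactivator NLRC5. HLA-B and HLA-C are classical heavy chains, whereas HLA-E and HLA-F are non-classical ones with little variation between people.

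The promoters are shown first because interferon-responsive genes often carry GAAA repeats, which IRF factors bind. RefSeq promoters on GRCh38.p14, from 250 bases before to 50 bases after a start site, were matched for 8 of the 9 genes, HLA-E being the exception. The core of the interferon-stimulated response element, searched on both strands as GAAA, 2 bases of any kind and GAAA again, was found in 5 of these 8 genes (TAP1, TAP2, B2M, HLA-F and PSMB8) and in 3.57% of all 35116 promoters in the table. Here and below the 8 are counted by gene but the background by promoter. TAP1 and PSMB8 each had 2 listed promoters, of which 1 held the core. A shorter form, GAANNGAAA, was found in HLA-B, HLA-C, TAP2 and PSMB8, and in 7.66% of all promoters, and HLA-B and HLA-C held it without the core. The windows below are upstream of the start site and run 5′ to 3′ along the gene, and capitals mark the matches of the core or, in HLA-B and HLA-C, of the shorter form, on either strand. In TAP2 a match of the shorter form begins 5 bases before the capitals and overlaps them.
TAP1, chr6:32853798-32853863, minus strand: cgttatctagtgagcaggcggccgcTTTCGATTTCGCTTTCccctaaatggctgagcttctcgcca
TAP2, chr6:32838763-32838822, minus strand: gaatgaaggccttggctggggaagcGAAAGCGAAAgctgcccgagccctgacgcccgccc
B2M, chr15:44711348-44711413, plus strand: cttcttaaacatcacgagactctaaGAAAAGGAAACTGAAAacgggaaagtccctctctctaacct
HLA-F, chr6:29723253-29723312, plus strand: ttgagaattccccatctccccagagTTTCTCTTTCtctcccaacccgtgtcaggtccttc
HLA-B, chr6:31357301-31357359, minus strand: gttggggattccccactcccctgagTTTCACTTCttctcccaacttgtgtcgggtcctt
HLA-C, chr6:31272210-31272268, minus strand: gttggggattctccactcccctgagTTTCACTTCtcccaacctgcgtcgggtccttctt
TAP1 and B2M each held a pair of overlapping matches of the core, and the match of HLA-B had the same 9 letters as that of HLA-C. In PSMB8 the match lay in the second of its listed promoters and crossed the start site, and it is not printed. PSMB9 held neither form in its window, and its start site lies 488 bases from that of TAP1 on the opposite strand. The 2 core matches of TAP1 lie between these start sites, 354 and 360 bases upstream of that of PSMB9 by their nearest base. They are thus outside the window searched for PSMB9. Outside the 9, only a few chosen genes of the pathway were searched. Those with a listed promoter, TAPBP, PSME1, PSME2, PSMB10 and LAP3, all held the core. Of these, TAPBP passed in neither direction and the others were higher in siNONO. As the gene lists were chosen with earlier results known, these matches are given as a description only. The rest of the pathway was not searched, so no share can be given for it. The CCAAT box, searched as CCAAT on both strands, was found in HLA-B, HLA-C, HLA-F, B2M, TAP1 and PSMB9, and in 34.6% of all promoters. A kappaB-like form, GGGNNTTCC with N any base, was found in HLA-B, B2M and PSMB8, and in 6.58% of all promoters. The gamma-activated site, searched as TTCNNNGAA, was found in TAP1 and PSMB8, and in 7.66% of all promoters. A match is a description of the letters and does not show binding.

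The total estimated count of a library ran from 21765393 to 32659002. NONO was at 330 to 407 TPM in siControl and 75.5 to 81.7 TPM in siNONO and fell by 2.40 on the log2 scale (SE 0.0337, adjusted p = 2.47e-13, edgeR). Of the epithelial markers EPCAM, KRT8, KRT18, KRT19, CDH1, CLDN3 and CLDN4, each had at least 352 counts in every library, whereas VIL1 had at most 7.14 counts and CDX1 had none. Of the 7 epithelial markers tested, 3 were higher in siNONO and none was lower, with a median log2 fold change of 0.063. Of all genes tested, 23.2% were higher and 23.4% lower. Leukocytes express many class I genes. Of 14 leukocyte markers, only 2, CD3D and FCGR3A, had no count in any library, and PTPRC had 1 count over all libraries. CD68, a lysosomal protein of macrophages that other cells also express, was the single leukocyte marker with enough counts for the test, and its log2 fold change was 1.40 (SE 0.165, adjusted p = 1.80e-05, edgeR). The summed counts of the leukocyte markers were 85, 74 and 67 in siControl and 159, 182 and 178 in siNONO, without overlap. Their summed TPM was 3.20 to 7.04 in siControl and 7.00 to 7.79 in siNONO. None of the 5 fibroblast or endothelial markers tested passed the test. In bulk RNA, a change in the RNA per cell and a change in the number of cells of a type cannot be told apart.

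All 8 of the 9 genes with enough counts for the test were higher in siNONO, with fold changes from 1.42 for B2M to 3.04 for PSMB9. This was read against the background of the whole table, in which 3939 of 17000 genes tested, or 23.2%, were higher and 3985, or 23.4%, were lower (edgeR's quasi-likelihood test, adjusted p up to 0.05, with the Set as a block). The limma test on log2(TPM + 1) split its calls differently, with 1643 of 5257 called genes higher. The median log2 fold change of the 8 genes was 0.76, against -0.0048 for all genes tested. Within Sets 1, 2 and 3 that median was 0.78, 0.63 and 0.90. In each of the 8 genes, every siNONO library was above every siControl library in CPM, the count relative to the library size after TMM scaling, and the same held for 23.9% of all genes tested. PSMB8 was too low for the test.

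**Figure D1:**
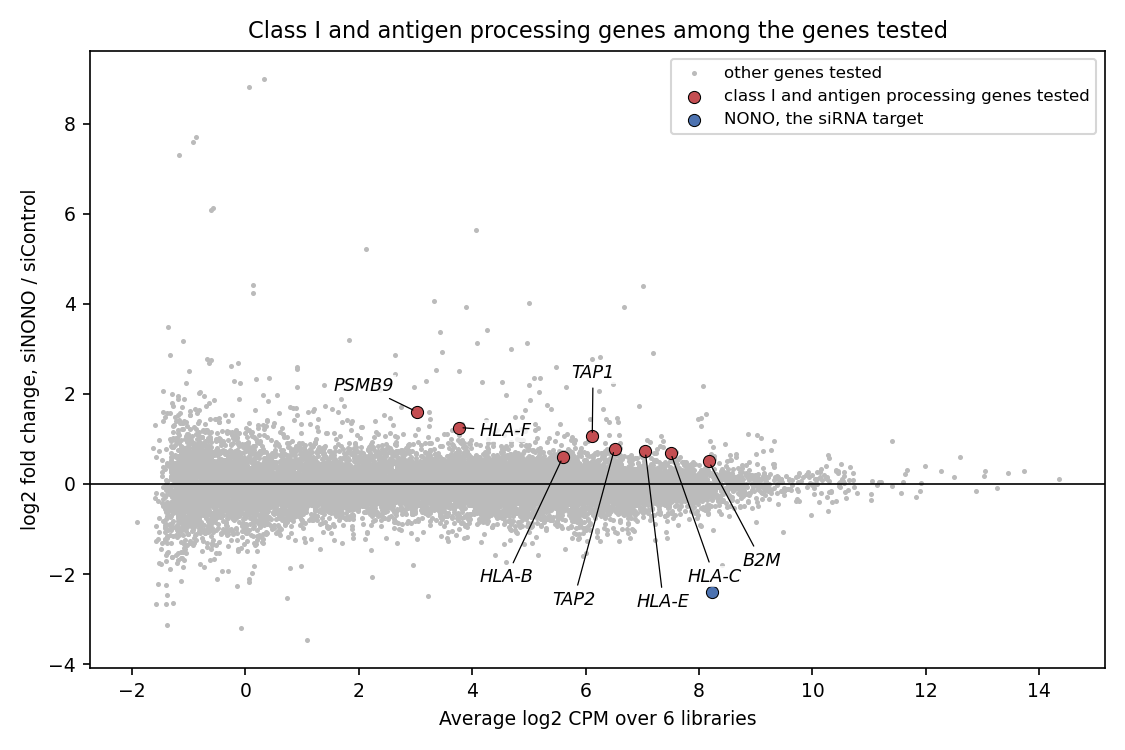
Log2 fold change of siNONO over siControl (y axis) against the average log2 CPM over 6 libraries (x axis) for the genes tested, 1 point per gene. The 8 class I and antigen processing genes tested, in red, lie above 0, from 0.50 for B2M to 1.60 for PSMB9, and NONO, in blue, lies at -2.40.

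Among the heavy chains, HLA-C, a classical chain, had 135, 137 and 139 CPM in siControl Sets 1, 2 and 3, and 217, 205 and 249 CPM in siNONO. The siControl libraries were close together, and siNONO Set 3 was the highest of all. Its log2 fold change was 0.70 (SE 0.0429, adjusted p = 6.04e-08, edgeR). HLA-B, the other classical chain of the 9, had 36.3, 38.6 and 40.7 CPM in siControl and 58.2, 54.5 and 61.4 CPM in siNONO. The groups did not overlap, and the log2 fold change was 0.59 (SE 0.0477, adjusted p = 6.52e-07, edgeR). On chromosome 6 of GRCh37, HLA-C lies from 31236526 to 31239907 and HLA-B from 31321649 to 31334844, both on the minus strand.

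HLA-E, the chain that presents signal peptides of other class I chains to natural killer cells, had 98.3, 101 and 98.9 CPM in siControl and 162, 163 and 171 CPM in siNONO. The libraries of each group were tightly grouped and well apart from the other group, and the log2 fold change was 0.73 (SE 0.0341, adjusted p = 5.19e-09, edgeR). HLA-F, a chain with low expression in most cells, had 8.13, 7.74 and 7.79 CPM in siControl and 17.8, 17.6 and 21.6 CPM in siNONO. All 3 siNONO libraries were more than 2 times the highest siControl library, and the log2 fold change of 1.25 (SE 0.0820, adjusted p = 1.02e-07, edgeR) was the highest of the heavy chains tested here. HLA-E lies from 30457286 to 30461971 and HLA-F from 29690552 to 29706305, both on the plus strand of chromosome 6.

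Because class I genes are near-identical in stretches, RSEM can share reads among them. The counts of HLA-B, HLA-C, HLA-E and B2M were whole in all libraries, whereas those of HLA-F were not whole in any of the 6, and its value is the less certain. When the 15 listed rows of class I heavy chains and their pseudogenes were merged into 1, they had 12040, 10215 and 8249 counts in siControl and 16026, 15178 and 17333 counts in siNONO. All siNONO sums were above all siControl sums. Their log2 fold change was 0.63 (95% confidence interval 0.55 to 0.70, adjusted p = 2.27e-08, edgeR), a value that does not depend on how reads were divided among the chains.

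Within each library, the share of HLA-F in the summed TPM of HLA-B, HLA-C, HLA-E and HLA-F, a scale corrected for transcript length, was 3.30%, 3.41% and 3.63% in siControl and 4.98%, 5.19% and 5.16% in siNONO. The shares of the other 3 chains overlapped between the groups, with means of 45.1% and 44.2% for HLA-C, 32.5% and 31.7% for HLA-B and 19.0% and 18.9% for HLA-E. HLA-F was thus the one chain of the 4 whose share was apart between the groups. The ratio of HLA-F to HLA-C in TPM was 0.0764 in siControl and 0.116 in siNONO and did not overlap (exact two-sided permutation test, n = 3 against 3, p = 0.10, adjusted p = 0.12 over 6 ratios). With 3 libraries against 3, 0.10 is the smallest p this test can give.

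**Figure D2:**
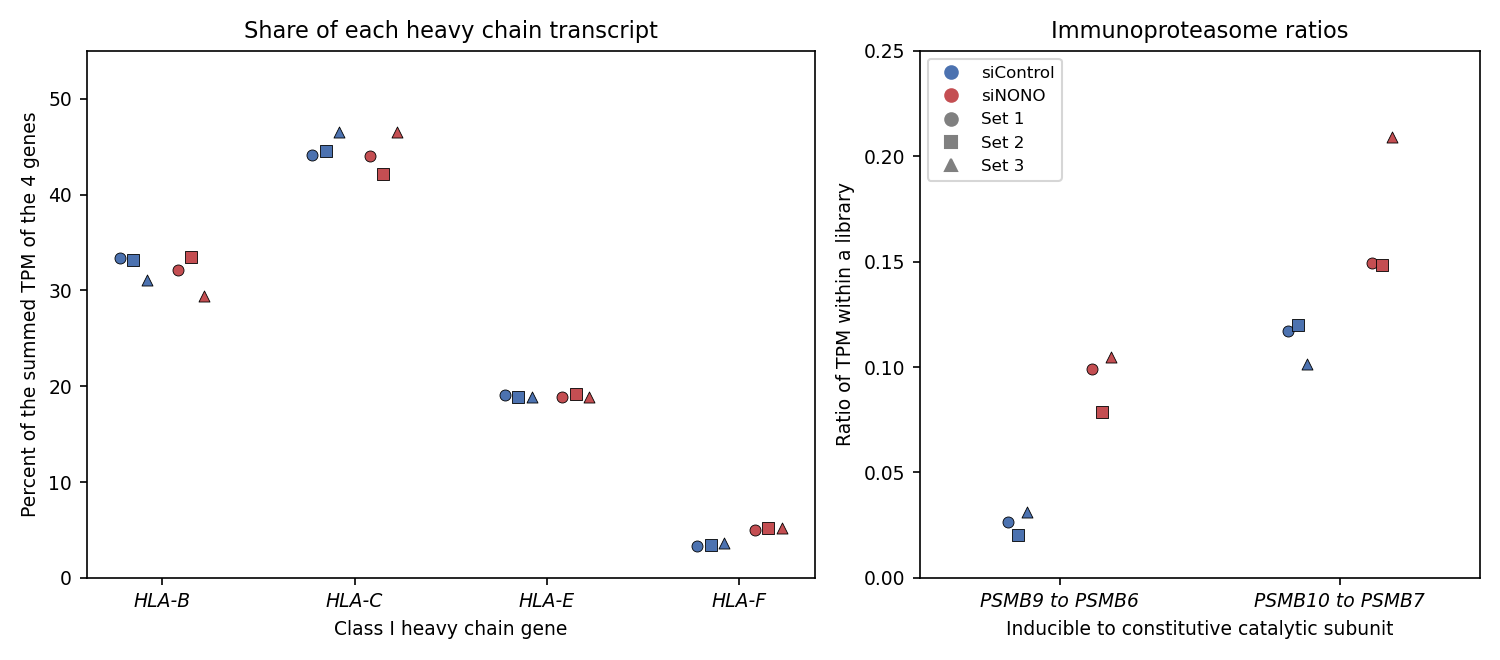
Left, share of each of 4 class I heavy chain genes in their summed TPM (y axis, percent), 1 point per library; right, TPM ratio of inducible to constitutive catalytic proteasome subunits within a library (y axis). Colours give the group and shapes the Set. The share of HLA-F is higher in siNONO and those of the other chains overlap, while both ratios are higher in siNONO, with Set 3 the highest for PSMB10 to PSMB7 at 0.209.

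B2M, the light chain of class I molecules, lies on the plus strand of chromosome 15 from 45003556 to 45011049. It had 246, 241 and 228 CPM in siControl and 349, 326 and 337 CPM in siNONO. The groups were apart, and its log2 fold change of 0.50 (SE 0.0323, adjusted p = 8.94e-08, edgeR) was the lowest of the 8 genes. The ratio of B2M to those 4 heavy chains in TPM was 2.34, 2.25 and 2.15 in siControl and 2.00, 1.92 and 1.76 in siNONO. It was lower in siNONO in every Set and did not overlap (exact two-sided permutation test, n = 3 against 3, p = 0.10, adjusted p = 0.12).

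TAP1 and TAP2, the paired chains of the peptide transporter, both rose. TAP1 had 42.6, 43.4 and 48.5 CPM in siControl and 90.2, 84.3 and 106 CPM in siNONO, and its log2 fold change was 1.06 (SE 0.0428, adjusted p = 1.55e-09, edgeR). TAP2 had 63.2, 70.4 and 66.2 CPM in siControl and 113, 104 and 128 CPM in siNONO, and its log2 fold change was 0.78 (SE 0.0580, adjusted p = 3.00e-07, edgeR). In both genes the siNONO library of Set 2 was the lowest of its group and that of Set 3 the highest. The ratio of TAP1 to TAP2 in TPM was 0.920, 0.967 and 0.926 in siControl and 1.17, 1.11 and 1.13 in siNONO, without overlap (exact two-sided permutation test, n = 3 against 3, p = 0.10, adjusted p = 0.12). The counts of both genes were fractional in all 6 libraries.

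PSMB9, the inducible catalytic subunit that takes the place of PSMB6 in the immunoproteasome, had 3.82, 3.62 and 4.47 CPM in siControl and 12.3, 10.7 and 13.1 CPM in siNONO. Its lowest siNONO library was more than 2 times its highest siControl library. Its log2 fold change of 1.60 (95% confidence interval 1.39 to 1.81, adjusted p = 5.08e-08, edgeR) was the highest of the 8 genes. PSMB8, the inducible counterpart of PSMB5, had estimated counts of 9, 8.04 and 1 in siControl and 14.7, 4.57 and 10.3 in siNONO. The groups overlapped, and Set 2 went the other way from Sets 1 and 3. Without the filter on low counts its log2 fold change was 0.78 with an adjusted p of 0.469 (edgeR), so a change of PSMB8 was not detectable at these counts.

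The ratio of PSMB9 to PSMB6 in TPM was 0.0267, 0.0203 and 0.0311 in siControl and 0.0992, 0.0785 and 0.105 in siNONO. PSMB9 thus remained the scarcer of the pair in every library. The ratio of PSMB10, the third inducible subunit, to PSMB7 was 0.117, 0.120 and 0.102 in siControl and 0.149, 0.149 and 0.209 in siNONO. Neither of these ratios overlapped between the groups (exact two-sided permutation test, n = 3 against 3, p = 0.10, adjusted p = 0.12 for both). The ratio of PSMB8 to PSMB5 was higher in siNONO in Sets 1 and 3 and lower in Set 2, and the groups overlapped (p = 0.40, adjusted p = 0.40 by the same exact test).

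**Figure D3:**
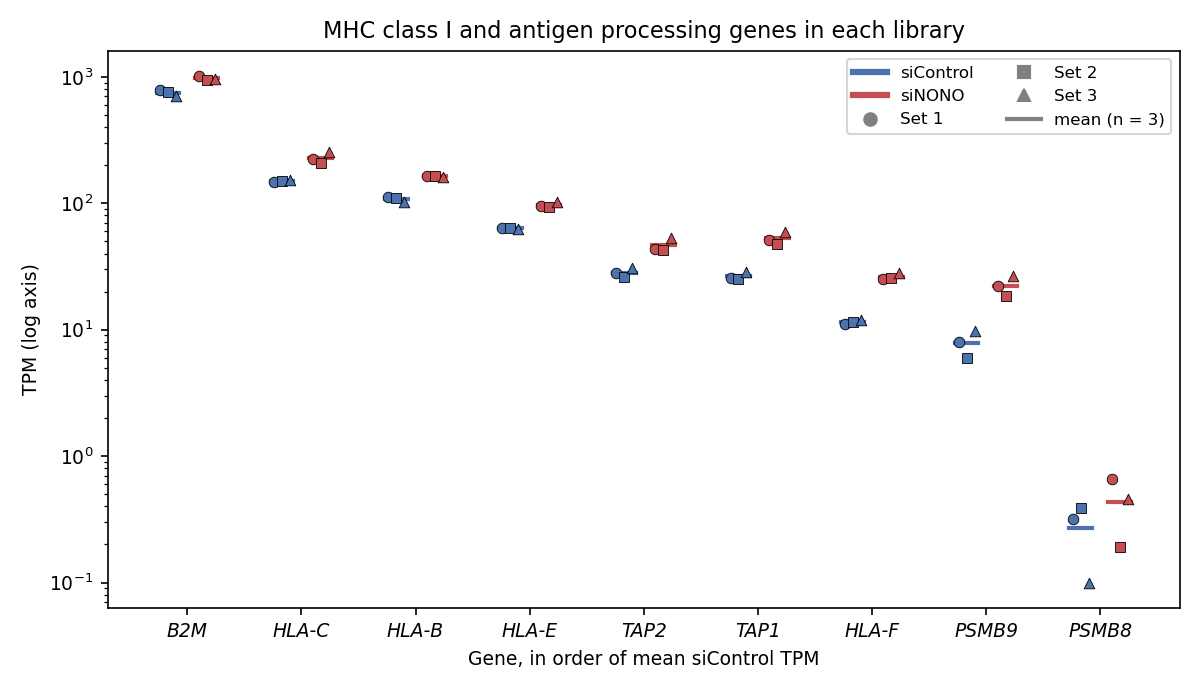
TPM, the level corrected for transcript length (y axis, log scale), of the 9 genes in each library, ordered by their siControl mean; colours give the group, shapes the Set and bars the mean of 3 libraries. In each gene except PSMB8 the 3 siNONO libraries lie above the 3 siControl libraries.

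Ordered by TPM in siControl, B2M came first at 747 ± 35.6 TPM (SD, n = 3), followed by HLA-C at 150 ± 3.27, HLA-B at 108 ± 4.87 and HLA-E at 63.1 ± 0.754 TPM. TAP2 at 28.3 ± 2.38 and TAP1 at 26.5 ± 1.80 TPM were next and overlapped. HLA-F at 11.5 ± 0.499, PSMB9 at 7.89 ± 1.85 and PSMB8 at 0.270 ± 0.151 TPM came last. The order in siNONO was the same down to HLA-E, at 971 ± 37.3, 228 ± 24.1, 163 ± 1.75 and 97.4 ± 4.70 TPM. There TAP1 at 52.6 ± 6.07 TPM came before TAP2 at 46.4 ± 5.53, again with overlap, and HLA-F at 26.3 ± 1.64 overlapped with PSMB9 at 22.3 ± 4.01 TPM. PSMB8 stayed last at 0.437 ± 0.236 TPM. TPM divides by the effective length, which RSEM derives from the length it assigned. The assigned length of HLA-B was 629 to 759 bases, well under the 1480 to 1513 bases of HLA-C, so the place of HLA-B rests on length. Levels of the variable HLA genes also depend on how near the alleles of the line are to the reference transcripts, and this was not tested.

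Of 15 genes of peptide loading and trimming, 7 were higher, 4 were lower and 4 passed in neither direction, where 23.2% of all genes tested were higher and 23.4% lower. The median log2 fold change of this list was 0.0048, against -0.0048 for all genes. LAP3, a cytosolic aminopeptidase, rose by 1.38 (SE 0.0462) on the log2 scale, and the trimming peptidases of the endoplasmic reticulum ERAP2 and ERAP1 rose by 0.74 (SE 0.119) and 0.55 (SE 0.0641). The chaperones PDIA3, CANX, HSPA5 and CALR rose by 0.44, 0.28, 0.27 and 0.23. TAPBP, or tapasin, which bridges TAP and the class I molecule, had a log2 fold change of -0.046 with a 95% confidence interval of -0.11 to 0.022. UGGT1, a glycosyltransferase of the quality control of folding, fell by 0.49, and the peptidases BLMH, NPEPPS and NRDC fell by 0.31, 0.20 and 0.15.

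Of 6 further genes of the immunoproteasome and its activators, 3 were higher, 2 lower and 1 in neither direction, beside the same 23.2% and 23.4% of all genes. PSME1 and PSME2, which form the PA28 activator, rose by 0.92 (SE 0.0565) and 0.62 (SE 0.0417) on the log2 scale. PSMB10 rose by 0.50 (SE 0.135, adjusted p = 0.00860, edgeR), with 9.20, 9.39 and 7.88 CPM in siControl and 10.7, 11.1 and 16.6 CPM in siNONO. The siNONO library of Set 3 stood above the rest for this gene. POMP, an assembly chaperone of the proteasome, and PSME4, another activator, each fell by 0.16, and PSME3 was at 0.013. Of the 3 constitutive catalytic subunits, PSMB6 fell by 0.28 (SE 0.0351) and PSMB7 by 0.10 (SE 0.0312), while PSMB5 had a log2 fold change of 0.0067. Of 11 other core subunits, 8 were lower, where 23.4% of all genes were, and none was higher, with a median of -0.17.

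**Figure D4:**
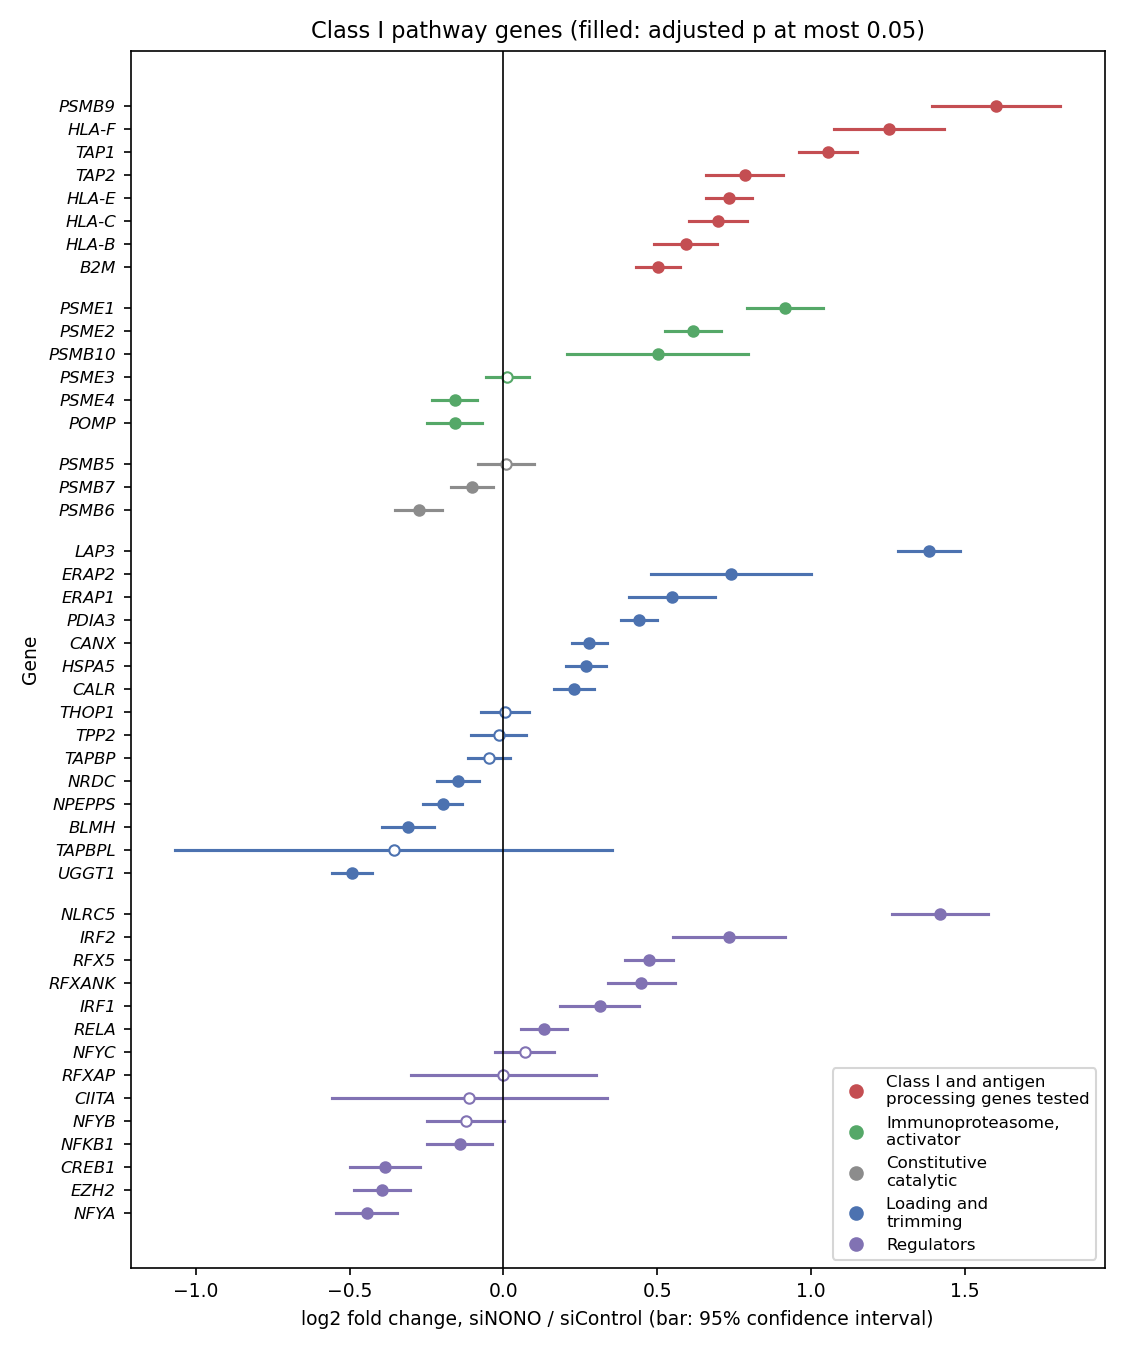
Log2 fold change of siNONO over siControl (x axis) with its 95% confidence interval for class I pathway genes (y axis), coloured by list; filled points passed an adjusted p of 0.05. The 8 class I and antigen processing genes lie right of 0, whereas the plotted lists of loading and trimming genes, of immunoproteasome and activator genes and of regulators each have points on both sides that passed.

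Of 14 regulators of class I transcription, 6 were higher, 4 were lower and 4 passed in neither direction, with a median of 0.034. The number lower is near the 23.4% of all genes that were lower, and 23.2% of all genes were higher. NLRC5, the class I transactivator, had 10.2, 9.28 and 10.9 CPM in siControl and 25.8, 23.3 and 33.2 CPM in siNONO, and its log2 fold change was 1.42 (SE 0.0716, adjusted p = 1.12e-08, edgeR). Its groups did not overlap. The interferon regulatory factors IRF2 and IRF1 rose by 0.73 and 0.31. Of the proteins that bind the class I promoter with NLRC5, RFX5 and RFXANK rose by 0.47 and 0.45, NFYA and CREB1 fell by 0.45 and 0.39, and RFXAP, NFYB and NFYC passed in neither direction. RELA rose by 0.13 and NFKB1 fell by 0.14, both NF-kB subunits, and EZH2, a histone methyltransferase, fell by 0.39. CIITA, the class II counterpart of NLRC5, was at 0.507 and 0.433 TPM in siControl and siNONO and did not pass.

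Apart from B2M, the genes lie in the MHC region of chromosome 6. Between the start of HLA-F and the end of PSMB9, 3.14 Mb on GRCh37, 109 other genes were tested, of which 18, or 16.5%, were higher and 29 were lower, with a median log2 fold change of -0.046. Of all genes tested, 23.2% were higher. TAP2, PSMB8, TAP1 and PSMB9 lie within 38.0 kb, from 32789610 to 32827628. The nearest tested protein-coding genes on each side lie 74778 (HLA-DMB) to 597766 bases (NOTCH4) away, so they are not immediate neighbours. Of these, NOTCH4, HLA-DRA, HLA-DRB1, HLA-DMB and HLA-DMA passed in neither direction, and BRD2 fell by 0.096. The values of NOTCH4, HLA-DRA and HLA-DRB1 were imprecise, at 0.40 (SE 0.36), -0.46 (SE 0.23) and 0.76 (SE 0.41). PSMB8-AS1, a noncoding RNA within the cluster on the plus strand, had a log2 fold change of 1.13 (SE 0.345, adjusted p = 0.0170, edgeR) at 0.330 TPM in siControl and 0.720 TPM in siNONO, and it overlaps TAP1 and PSMB8 on the other strand. The annotated span of PSMB9, from 32811913, runs over TAP1 and part of PSMB8 on the opposite strand. The kit marks strand, but whether the counting used it is not given in the sources used here. The counts of PSMB9 were whole in all 6 libraries, whereas those of TAP1 were fractional in all 6 and those of PSMB8 in 4.

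By Pearson's r with the mean profile of the 8 genes over 6 libraries, the 5 most similar of 13332 other genes whose average log2 CPM was 1 or more included HELZ2 (r = 0.9997), TRIM25, ZHX2 and IFI35 (r = 0.9988). HELZ2 and IFI35 had log2 fold changes of 1.74 and 2.26, TRIM25 of 0.96 and ZHX2 of 0.47. As the 6 libraries fall into 2 groups, 1151 genes had an r over 0.95, so likeness here reflects mostly the difference between the groups.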

How the data were processed

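RNA-seq of HCT116 cells was analysed for 3 siControl and 3 siNONO libraries. Reads had been trimmed with sickle and mapped by STAR to the GENCODE version 34 transcripts of GRCh37, and RSEM (version 1.3.1, also in the submitters' processing notes) gave the values per gene. The authors deposited the estimated count, which is not normalized, the TPM and FPKM, which RSEM scaled for length and depth, and the length and effective length in bases. FPKM was not used here.

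The deposited estimated counts were rounded and tested with edgeR (version 4.0.16, legacy quasi-likelihood test), TMM scaling, filterByExpr, the Set as a block, as the study names a batch but not what it was, and Benjamini-Hochberg adjustment over 17000 genes. Standard errors were computed as the log2 fold change over the square root of F. The 9 genes and all gene lists were chosen with earlier results of these data known. Named genes were the 9, NONO, tested genes of the lists, and the 5 genes most similar in profile. The values of 3 genes are not reported here, and they were left out of the list counts but not of the summed heavy chains or the fits. Cell type markers and the genes next to or within the TAP2 to PSMB9 cluster are also named, PSMB8-AS1 after its value was seen. Symbols were found for 62211 of 62492 IDs. Positions were read from the GRCh37 mapping of GENCODE version 44, which is later than the annotation used for counting, and promoters from RefSeq. Of the 6 TPM ratios, the 3 not of proteasome subunits were added after the data were seen.

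No 2 libraries of a group were within sampling noise of each other. The Set numbers come from the labels, and deviations from the group means correlated within every Set (r = 0.427, 0.253 and 0.504 over 10840 genes; -0.437 to 0.16 between different Sets), so the Sets pair the libraries. The biological coefficient of variation was 3.51%. The test was run on simulated counts with known changes. It missed the pass mark first set on all changed genes, where low counts were often not recovered, and the mark was then changed to the slope, the false calls and the recovery at higher counts. Alternatives were other scalings and filters, no block, DESeq2 (version 1.42.0), limma (version 3.58.1) on log2(TPM + 1) and log2(TPM + 0.1), merged heavy chains and each library left out.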

Additional observations from a re-analysis of the deposited data

How the results depend on the processing

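The 8 genes tested, NONO and the summed heavy chains kept their direction and stayed past the threshold in all 16 alternatives each, with log2 fold changes from 0.38 to 0.55 for B2M, from 1.40 to 1.64 for PSMB9 and from 0.54 to 0.68 for the sum. The number of genes changed, 7924, fell to 5227 with DESeq2 and the Set as a block, to 5257 with limma on log2(TPM + 1) and to 5250 on log2(TPM + 0.1). The genes higher were 2612, 1643 and 1638 in those fits. The cause was not tested. With heavy chains merged, the merging left 5 features in place of 8 genes, and all 5 were higher. Without the replicate block, 6164 genes changed and the 8 genes stayed higher, so the pairing changed none of their calls. Leaving out each library gave 6497 to 7653 genes changed, 8 to 8 of the 9 genes higher, a median of 0.71 to 0.91, and 0.58 to 0.68 for the summed heavy chains. The median was highest without siControl Set 2 (0.91) or siNONO Set 2 (0.90). In these fits PSMB8 also had enough counts to be tested, at 1.45 and 1.44, so the medians were over 9 genes and not 8. PSMB8 was also included without siControl Set 1 or Set 3, where the medians were 0.74 and 0.71. The log2 change of PSMB8 to PSMB5 ran from 0.21, without siControl Set 3, to 1.28, without siNONO Set 2. The log2 changes of PSMB9 to PSMB6 and PSMB10 to PSMB7 ran from 1.70 to 2.01 and from 0.40 to 0.65. In the 4 fits without 1 library that could test PSMB8, its adjusted p was 0.108 to 0.725 (edgeR). Its low counts and the difference between the Sets limit what can be said of that gene.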

Other observations

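Of 11 other molecules with a class I fold that were tested, 4 were higher and 2 lower, with a median log2 fold change of 0.33. These numbers are near the 23.2% of all genes that were higher and the 23.4% that were lower, so the values are given gene by gene. Among ligands of NKG2D, the activating receptor of natural killer cells, ULBP2 rose by 0.88 (SE 0.102) and RAET1L by 0.92 (SE 0.239) on the log2 scale, while ULBP3 fell by 0.47 (SE 0.0531) and MICB by 0.13 (SE 0.0453). The counts of ULBP2 and RAET1L were not whole in any of the 6 libraries, and those of ULBP3 in 5, so these values are the less certain. RAET1L was also low, at 1.49 TPM in siControl and 2.74 TPM in siNONO. MICA, ULBP1 and RAET1G had log2 fold changes of -0.17, 0.12 and 0.76 and did not pass. PROCR, the endothelial protein C receptor, rose by 0.81 (SE 0.0503), and MR1, which presents vitamin metabolites to MAIT cells, rose by 0.33 (SE 0.0766). HLA-G had no count in any library. Of 9 class I pseudogenes, 2 had enough counts for the test, HLA-H and HLA-L, and neither passed.

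Of 14 class II pathway genes, 9 had enough counts for the test, of which 2 were higher and none lower, and the number higher is near the 23.2% of all genes. IFI30, a lysosomal thiol reductase, rose by 0.54 (SE 0.0473), and HLA-DPA1, a class II alpha chain, rose by 1.19 (SE 0.310) from a low level of 0.533 TPM in siControl. HLA-DRA was at 2.20 TPM in siControl and 1.51 TPM in siNONO and did not pass, with a log2 fold change of -0.46 and a 95% confidence interval of -0.96 to 0.046.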
